A study of Mus musculus with 9 samples.

Results

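The Myc network was represented by 9 genes: the Myc genes Myc and Mycn, their obligate partner Max, the Max partners Mxd1, Mxd3, Mxd4, Mxi1 and Mnt, and the Max-like gene Mlx. They were taken by symbol from the deposited table, in which each occurred once among 19435 genes. The libraries came from mouse oviduct. Of these, 4 were primary tumors with the genotype Dicer1ko/D1693N (tumors 1 to 4), 3 were normal oviducts with the genotype Dicer1+/D1693N (oviducts 1 to 3) and 2 were normal Dicer1+/+ oviducts (oviducts 4 and 5). The tumors and the first 3 oviducts thus shared the D1693N allele, and the labels name no treatment. The labels do not say how the deletion was brought about, or whether each library came from a separate animal, so p-values measure the spread between these libraries. All 9 genes passed the deposited table's minimum of 10 reads over all libraries, and they had 88 to 3464 reads per library.

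Myc and Mycn are transcription factors that drive growth and division and bind DNA only as dimers with Max. The Mxd proteins, Mxi1 and Mnt compete for Max, bind the same E-box and recruit Sin3 and histone deacetylases, which lowers transcription. Mycn is known mainly from embryonic tissues and childhood tumors, Mxd1 and Mxd4 from differentiating cells, and Mxd3 from cells in S phase. Dicer1 encodes the ribonuclease that releases miRNAs from their hairpins, and D1693N sits in its RNase IIIb domain, whose cut releases the 5p strand.

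The E-box CACGTG, a palindrome that reads the same on both strands, was searched in RefSeq windows of GRCm38.p6 that run from 250 bases before to 50 bases after a gene's start. A window was found for 8 of the 9 genes, and Myc was not matched. The E-box was present for Max, Mlx, Mnt and Mxd4 and not for Mycn, Mxd1, Mxd3 or Mxi1. This made 4 of 10 windows, against 7.15% of 32851 windows of all genes. By gene it made 4 of 8, against 10.4% of the 13560 genes of the table with a window. The matching stretches are shown since they carry the element that Myc and Mxd dimers bind, with the E-box in capitals, and none overlapped another CACGTG. They lie on chr12:76962224-76962273 (minus strand, E-box at position -3 from the start) for Max, chr11:101087228-101087277 (plus strand, -40) for Mlx, chr11:74830779-74830828 (plus strand, -123) for Mnt and chr5:34187902-34187951 (minus strand, -219) for Mxd4.
Max: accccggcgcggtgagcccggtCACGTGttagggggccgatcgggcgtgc
Mlx: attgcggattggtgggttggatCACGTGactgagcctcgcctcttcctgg
Mnt: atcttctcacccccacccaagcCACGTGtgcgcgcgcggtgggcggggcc
Mxd4: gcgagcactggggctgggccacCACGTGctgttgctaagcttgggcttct
The window of Mxd3 held GCGGGAA, the reverse complement of the E2F-type motif TTCCCGC, at position -136 on chr13:55329839-55329889 (minus strand), the only such match among the 8 genes, against 4.60% of all windows on either strand.
Mxd3: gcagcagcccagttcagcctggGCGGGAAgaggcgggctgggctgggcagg
These matches describe letters in a window and do not show binding.

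Library totals were 8732190 to 11267144 reads in tumors and 8504993 to 12526078 reads in oviducts. The log2 values of tumors correlated with each other at 0.864 to 0.929 and those of oviducts at 0.968 to 0.986. Dicer1 itself had normalized counts of 1282.9, 741.5, 1379.2 and 576.3 in tumors 1 to 4 and 1236.8, 1004.7, 1145.3, 903.9 and 1141.0 in oviducts 1 to 5. Its log2 change was -0.21 ± 0.25 (SE), adjusted p = 0.568 by limma, and a gene count cannot tell the deleted allele from the D1693N allele. The oviduct label was checked with 8 ciliated epithelium markers, all detected in every oviduct. Their summed normalized count was 160 to 717 in tumors and 20574 to 32516 in oviducts. Of 10 oviduct identity markers, some of them also ciliated markers, 5 were called lower in tumors by the rule given below. None was called higher, and their median log2 change was -1.22, beside 12.1% of all genes called lower. In bulk tissue, fewer cells of a type and less RNA per cell cannot be told apart.

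Between tumors and oviducts, 2 of the 9 genes were called, both higher in tumors: Mycn, which encodes N-Myc, and Mxd1, which encodes a repressor that competes with it for Max. A call required an adjusted p under 0.05 by limma, adjusted over all 19435 genes, and a log2 change of at least 1. Over all genes, 18.7% were called in either direction, 6.53% were called higher and 12.1% lower, so the count of 2 of 9 lies near the share of either direction. Mxd3 passed the adjusted p with a smaller change, which made 3 of 9 by the p alone, against 31.1% of all genes in either direction and 12.6% higher. The log2 change had a median of 0.36 over the 9 genes and -0.05 over all genes.

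Mycn lies on chr12:12936093-12941914 (minus strand, GRCm38). Its normalized count was 136.9, 300.9, 478.5 and 889.7 in tumors 1 to 4, against 98.2, 121.3, 90.5, 124.2 and 142.9 in oviducts 1 to 5. Tumors 2, 3 and 4 lay above every oviduct, and tumor 1 lay within the oviducts' range. The means were 452 ± 324 in tumors (SD, n = 4) and 115 ± 21.1 in oviducts (SD, n = 5). The log2 change on the deposited scale was 1.53 ± 0.42 (SE), with a 95% interval of 0.61 to 2.46 and an adjusted p of 0.0185. Relative to the oviduct mean, Mycn was 1.19-fold in tumor 1, 2.61-fold in tumor 2, 4.15-fold in tumor 3 and 7.71-fold in tumor 4. The highest tumor had 6.50 times the level of the lowest. The SD of its log2 values among tumors was 1.07, above that of 90.2% of the 12023 genes with a mean normalized count of at least 100, for which the median SD was 0.42 in tumors and 0.19 in oviducts. The call was kept without any 1 library, with changes of 1.13 to 1.97 and adjusted p-values up to 0.0454.

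Myc, on chr15:61985391-61990374 (plus strand), encodes the broadly expressed member c-Myc and moved less. It had normalized counts of 312.7, 307.7, 233.1 and 228.2 in tumors 1 to 4, against 222.1, 292.7, 171.1, 188.6 and 168.6 in oviducts 1 to 5. The groups overlapped, and tumors 1 and 2 lay above every oviduct. Means were 270 ± 46.0 in tumors (SD, n = 4) and 209 ± 51.6 in oviducts (SD, n = 5), a log2 change of 0.36 ± 0.20 (SE) that did not pass (adjusted p = 0.198 by limma), with a 95% interval of -0.08 to 0.80. The tumors were close to each other: the SD of their log2 Myc values was 0.23, higher than for 17.4% of the genes compared. The tumors with the lowest Mycn (1 and 2) had the higher Myc, which is given as an order of 4 libraries and was not tested.

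**Figure D1:**
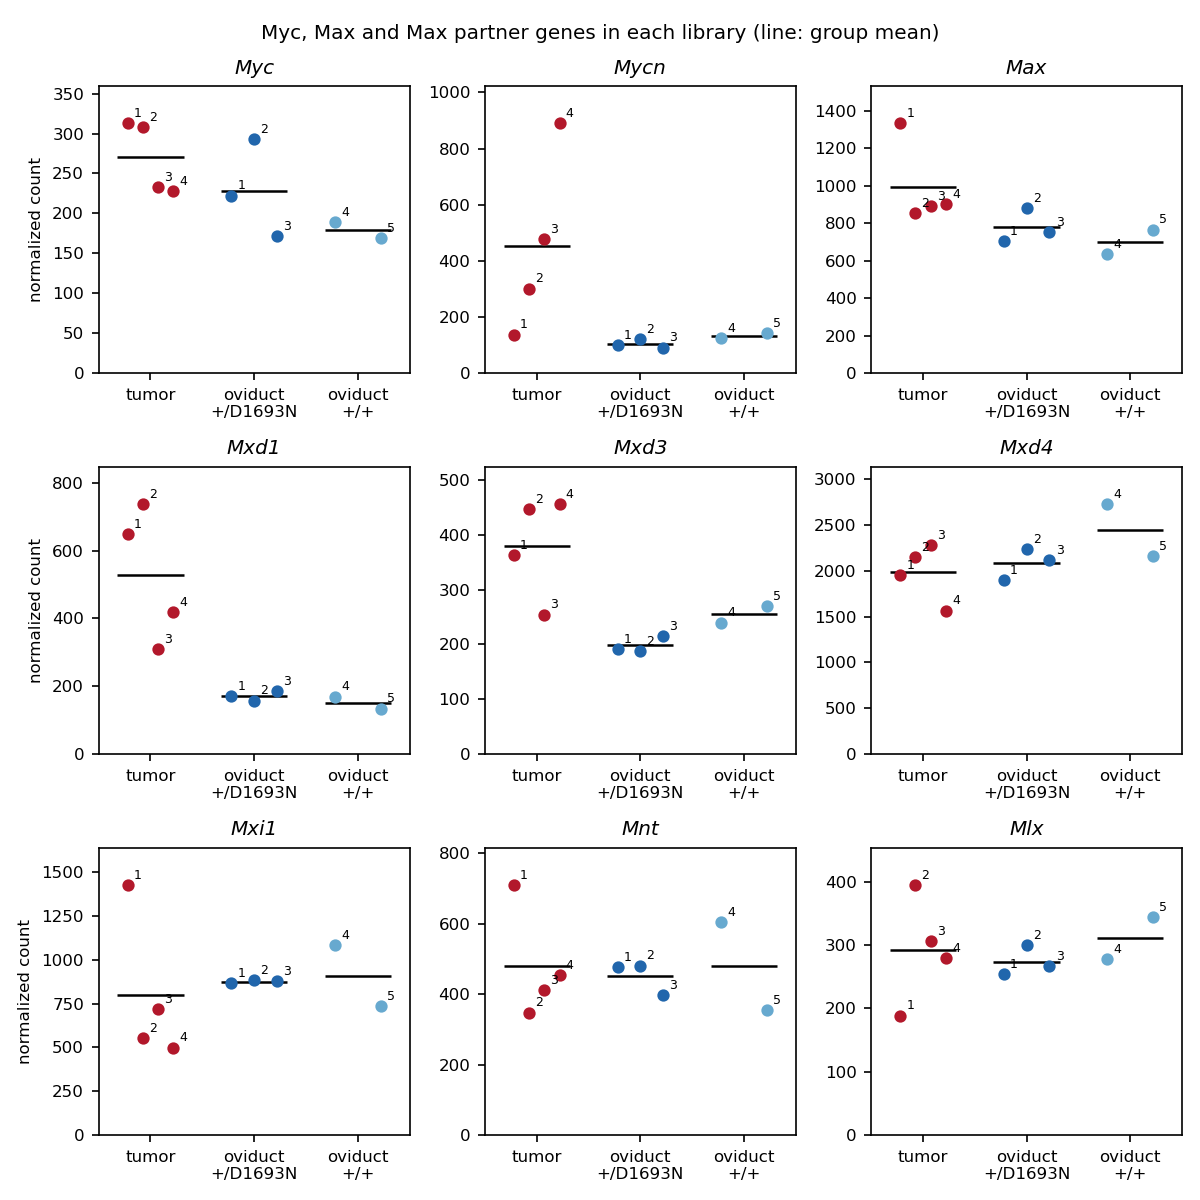
Normalized counts of the 9 genes (vertical axes start at 0) in 4 tumors, 3 Dicer1+/D1693N oviducts and 2 Dicer1+/+ oviducts, with 1 numbered point per library and a line at each group mean. All 4 tumors lie above all 5 oviducts for Mxd1, while Mycn spans 136.9 to 889.7 in tumors and 90.5 to 142.9 in oviducts.

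Max, on chr12:76937269-76962201 (minus strand), is the partner with which Myc, Mycn, the Mxd proteins, Mxi1 and Mnt bind DNA. Its normalized counts were 1332.4, 855.1, 891.7 and 901.3 in tumors 1 to 4 and 704.3, 879.7, 750.3, 632.8 and 765.9 in oviducts 1 to 5. Tumor 1 stood above all other libraries, tumors 3 and 4 lay slightly above the highest oviduct, and tumor 2 lay below it. The log2 change was 0.39 ± 0.16 (SE) and did not pass (adjusted p = 0.0919 by limma). Centring each library on its median gave 0.52 with an adjusted p of 0.0382, below the size needed for a call, and without tumor 1 the change was 0.24 (adjusted p = 0.184).

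Among the repressors, Mxd1 on chr6:86647042-86669161 (minus strand) was the one member whose groups did not overlap, against 10.8% of all genes with every tumor above every oviduct and 27.6% in either direction. It had normalized counts of 647.7, 735.9, 308.5 and 418.6 in tumors 1 to 4, against 170.8, 157.2, 185.1, 169.0 and 134.0 in oviducts 1 to 5. The lowest tumor, tumor 3, was 1.89-fold the oviduct mean and the highest, tumor 2, was 4.51-fold. Means were 528 ± 198 in tumors (SD, n = 4) and 163 ± 19.1 in oviducts (SD, n = 5), with a log2 change of 1.51 ± 0.24 (SE), a 95% interval of 0.97 to 2.04 and an adjusted p of 0.00106 by limma. Leaving out any 1 library gave 1.33 to 1.73, and the call was kept each time.

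Mxd1 is also known for its high level in maturing granulocytes, so granulocyte markers are given beside it. In a list of 10 neutrophil genes written after the data had been seen, 5 rose in tumors and none fell. S100a8, a granulocyte calcium-binding protein, had normalized counts of 409.8, 2962.7, 6.8 and 3645.0 in tumors 1 to 4 and 1.1 to 4.5 in oviducts. Csf3r, the G-CSF receptor, had 179.7, 1079.9, 99.1 and 561.6 in tumors 1 to 4 and 15.6 to 49.8 in oviducts. Macrophage markers, of which 5 of 7 rose, summed to 15871, 26601, 5763 and 45300 in tumors 1 to 4 and 3267 to 5319 in oviducts. Tumor 3 was the lowest tumor for Mxd1, for both granulocyte genes and for the macrophage sum, and there Mxd1 was still above every oviduct. The order of the other tumors differed. S100a8 and the macrophage sum were highest in tumor 4, where Mxd1 was 418.6, while Mxd1 (735.9) and Csf3r were highest in tumor 2. The part of these cells in the Mxd1 level was not tested.

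Mxd3, on chr13:55325168-55329823 (minus strand), is the Mxd gene of dividing cells. It had normalized counts of 363.2, 446.3, 254.4 and 455.4 in tumors 1 to 4, against 192.0, 187.9, 214.9, 239.7 and 270.2 in oviducts 1 to 5. Tumors 1, 2 and 4 lay above every oviduct and tumor 3 lay within their range. The log2 change was 0.71 ± 0.20 (SE), adjusted p = 0.0210 by limma, below the size of a call. Without tumor 2, oviduct 1 or oviduct 2 the adjusted p was 0.0592, 0.0528 and 0.0553. All 10 of 10 markers of dividing cells rose, against 6.53% of all genes called higher. Their summed normalized counts were 7866, 5812, 8369 and 5099 in tumors 1 to 4 and 857 to 1236 in oviducts. Their order was not that of Mxd3, since tumor 3 had the highest marker sum and the lowest Mxd3 among tumors. The part of cell division in the Mxd3 level was not tested.

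Mxd4 and Mxi1, the other repressors of the Mxd group, gave no call. Mxd4, on chr5:34173883-34187720 (minus strand), had normalized counts of 1949.1, 2147.4, 2282.1 and 1563.8 in tumors 1 to 4, against 1899.8, 2236.2, 2111.5, 2722.8 and 2155.9 in oviducts 1 to 5. The groups overlapped with only tumor 4 below every oviduct, and the log2 change was -0.17 ± 0.15 (SE), adjusted p = 0.444 by limma, with a 95% interval of -0.51 to 0.17. Mxi1, on chr19:53310518-53375810 (plus strand), had 1425.6, 554.2, 718.3 and 499.5 in tumors 1 to 4, against 867.3, 885.7, 877.6, 1083.9 and 735.7 in oviducts 1 to 5. Tumor 1 was above and tumors 2, 3 and 4 were below every oviduct. The log2 change of Mxi1 was -0.27 ± 0.27 (SE), adjusted p = 0.494 by limma, and without tumor 1 it was -0.58 with an adjusted p of 0.0255, still under the size of a call.

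Mnt, on chr11:74830920-74845725 (plus strand), encodes the most broadly expressed Max-binding repressor. It had normalized counts of 708.9, 347.5, 412.1 and 453.3 in tumors 1 to 4, against 477.8, 481.4, 397.0, 605.2 and 355.0 in oviducts 1 to 5. Tumor 1 lay above and tumor 2 below every oviduct, and the log2 change was 0.02 (95% interval -0.46 to 0.51). Mlx, on chr11:101087277-101092207 (plus strand), encodes the partner of the glucose-sensing Mondo proteins and of some Mxd proteins. It had normalized counts of 188.4, 394.0, 306.2 and 278.7 in tumors 1 to 4, against 254.5, 299.5, 266.7, 277.5 and 343.9 in oviducts 1 to 5. Here tumor 1 was below and tumor 2 above every oviduct, the reverse of Mnt, and the log2 change was -0.02 (95% interval -0.47 to 0.43). These intervals include changes of up to about 0.5 in either direction, so neither gene was shown to be unchanged.

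Tumor 1 thus held the highest level of Max, Mxi1 and Mnt of all 9 libraries, the lowest level of Mlx of all 9 and the lowest Mycn among the tumors. It also stood apart in cell markers. Its 5 red cell markers (such as Hbb-bs and Alas2) summed to 49369 normalized counts, against 1026 to 1564 in the other tumors and 891 to 1696 in oviducts, and its smooth muscle markers to 69984, against 2891 to 22190 in the other tumors and 34395 to 74357 in oviducts. Their part in these levels was not tested, and without tumor 1 the log2 change of Mnt was -0.17 and that of Mlx 0.16. Tumor 4, which held the highest Mycn, stood apart in fat cell markers. They summed to 32693 there, against 29 to 88 in the other tumors and 1149 to 10182 in oviducts. The part of fat cells in the Mycn level was not tested. For 4 genes an annotated gene on the opposite strand shares exon bases in GENCODE M21, namely Mlx with Psmc3ip (19.3% of its exon bases), Mxd4 with Gm42846 (6.06%), Mxd3 with Prelid1 (4.43%) and Mxi1 with Gm10197 (2.84%). The strand setting of the counting is not given in the sources used here, so reads of these genes and their partners may be mixed. Psmc3ip averaged 111 ± 29.5 normalized counts in tumors (SD, n = 4) and 188 ± 30.8 in oviducts (SD, n = 5).

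**Figure D2:**
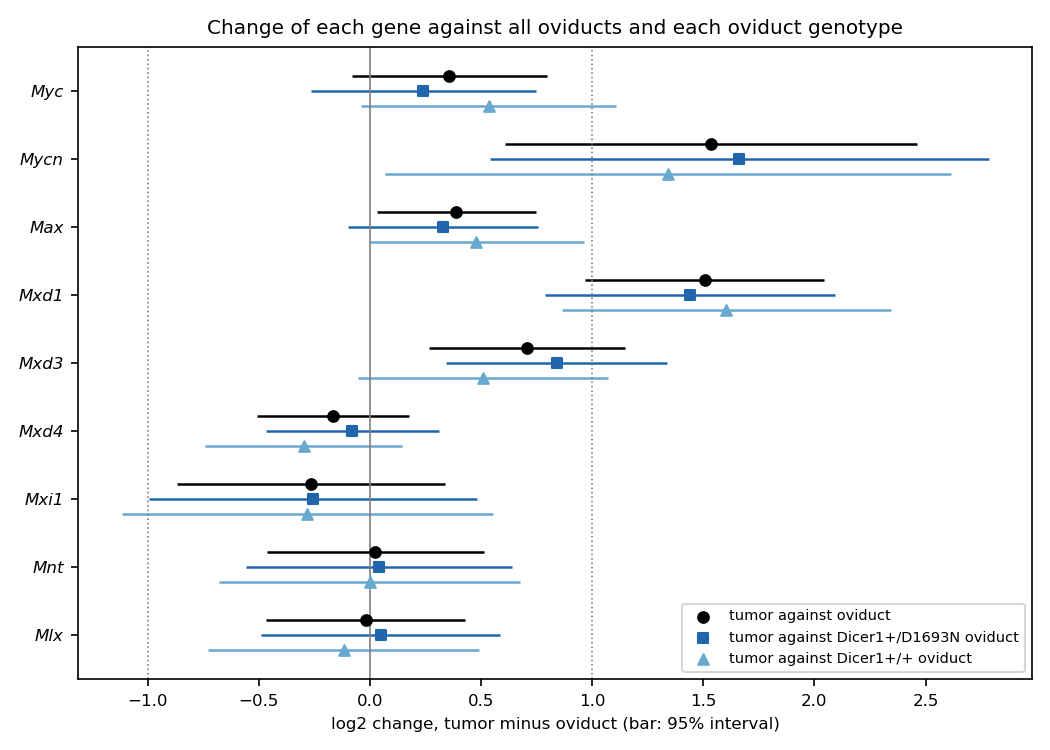
Log2 change of each gene (horizontal axis, tumor minus oviduct, on the deposited scale) against all 5 oviducts, the 3 Dicer1+/D1693N oviducts and the 2 Dicer1+/+ oviducts, with bars for 95% intervals and dotted lines at a change of 1 in either direction. Mycn and Mxd1 lie beyond 1 in all 3 comparisons, and the other 7 genes lie between -1 and 1.

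The tumors were next set against each oviduct genotype in a model in which all 9 libraries shared 1 spread, so the comparisons share the tumor libraries. Against Dicer1+/D1693N oviducts, which carry the same point mutation beside an intact allele, 2 of 9 genes were called, both higher, against 16.6% of all genes in either direction and 5.17% higher. These were Mxd1 (log2 change 1.44 ± 0.29, adjusted p = 0.00703) and Mycn (1.66 ± 0.50, adjusted p = 0.0395), and Mxd3 passed the adjusted p (0.84 ± 0.22, adjusted p = 0.0237, SE throughout, limma), which made 3 of 9 by the p alone, against 23.7% of all genes. The Mycn call was lost without tumor 2, without tumor 3 or without any 1 of the 3 Dicer1+/D1693N oviducts, with adjusted p-values up to 0.128, and with limma-voom on recovered reads (adjusted p = 0.0946). Without tumor 3, Mxd3 was called, with a log2 change of 1.01.

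Against Dicer1+/+ oviducts, 1 of 9 genes was called, against 13.8% of all genes in either direction and 4.07% higher. It was Mxd1 (log2 change 1.60 ± 0.33 (SE), adjusted p = 0.0104 by limma), and the call was lost without oviduct 4 (adjusted p = 0.0566) or oviduct 5 (adjusted p = 0.108). Mycn had a log2 change of 1.34 ± 0.56 (SE) and an adjusted p of 0.141. Without tumor 1 it was 1.78 with an adjusted p of 0.0208, without tumor 4 it was 0.93 (adjusted p = 0.156), and without any other library the adjusted p was up to 0.423. Mxd3 did not pass here (0.51 ± 0.25 (SE), adjusted p = 0.203), and 1 of 9 genes passed the adjusted p alone, against 16.5% of all genes.

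Between oviducts, Dicer1+/D1693N and Dicer1+/+ libraries gave 0 calls among the 9 genes by limma and 0 by limma-voom, with 0 of 9 at an unadjusted p under 0.05. Over all genes 0.0206% were called and 2.75% had an unadjusted p under 0.05. For 2 of 9 genes, Mycn and Mxd3, the libraries of the genotypes did not overlap, both lower in Dicer1+/D1693N oviducts, against 32% of all genes in either direction and 15.7% in this one. Mxd3 averaged 198 ± 14.6 in Dicer1+/D1693N oviducts (SD, n = 3) and 255 ± 21.5 in Dicer1+/+ oviducts (SD, n = 2), a log2 change of -0.33 (95% interval -0.93 to 0.26). For Mycn the change was -0.32 with an interval of -1.66 to 1.02. These intervals use a spread shared with the tumors. A fit of the 5 oviducts alone, added after the data had been seen, gave intervals of -0.65 to -0.01 for Mxd3 (adjusted p = 0.329) and -0.76 to 0.12 for Mycn (adjusted p = 0.461). It called 0 of 9 genes by limma and 0 by limma-voom, with 1 of 9 at an unadjusted p under 0.05.

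Levels of different genes were compared per kilobase of exon. In tumors Max was highest, with 277 ± 62.7 normalized counts per kb (SD, n = 4). Mxd4 followed with 234, Mxd3 with 160, Mlx with 146, Mycn with 137, Mxi1 with 117, Mnt with 104, Myc with 99.5 and Mxd1 with 74.6. The ranges of all neighbours in this order overlapped. In oviducts Mxd4 was highest, with 262 ± 35.9 per kb (SD, n = 5), and its range overlapped that of Max (208). Below a gap came Mlx (144), Mxi1 (130), Mnt (100.1), Mxd3 (93.3) and Myc (76.8), each overlapping the next, then Mycn (35.0) and last Mxd1 (23.1), whose ranges overlapped with no neighbour. Both called genes were therefore the lowest of the 9 in oviducts.

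As a description of the balance between activators and repressors, Myc plus Mycn summed to 157, 205, 231 and 354 normalized counts per kb in tumors 1 to 4 and to 90.5 to 145 in oviducts. All tumors were above all oviducts in this sum, which includes the called gene Mycn. Over all genes, 10.8% had every tumor above every oviduct. Mycl, a further Myc gene outside the 9, was left out of the sum. It had normalized counts of 295.2, 123.8, 176.8 and 463.8 in tumors 1 to 4 and 294.7 to 513.6 in oviducts. Its log2 change was -0.62 ± 0.33 (SE), adjusted p = 0.173 by limma. A sum with Mycl was not made, so the separation holds for Myc plus Mycn only. Mxd1, Mxd3, Mxd4, Mxi1 and Mnt together had 837, 702, 614 and 607 per kb in tumors 1 to 4 and 560 to 736 in oviducts, so these ranges overlapped and only tumor 1 was above every oviduct. The log2 ratio of both sums was -2.42, -1.78, -1.41 and -0.78 in tumors 1 to 4, with a mean of -1.60 ± 0.69 (SD, n = 4), and -2.46 ± 0.29 in oviducts (SD, n = 5, range -2.78 to -2.05). Tumor 1 lay within the oviducts' range and the other 3 tumors above it.

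The composition of both sums differed too. Mycn made up 26.5%, 44.6%, 62.9% and 76.3% of the Myc plus Mycn sum in tumors 1 to 4 and 25.5% to 41.1% in oviducts. Mxd1 made up 7.10% to 14.8% of the repressor sum in tumors and 3.25% to 4.51% in oviducts, while Mxd4 made up 27.5% to 43.8% in tumors and 40.0% to 44.5% in oviducts. No test was made on these sums, since they are scores over the chosen genes, and RNA levels do not give the levels of the dimers.

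**Figure D3:**
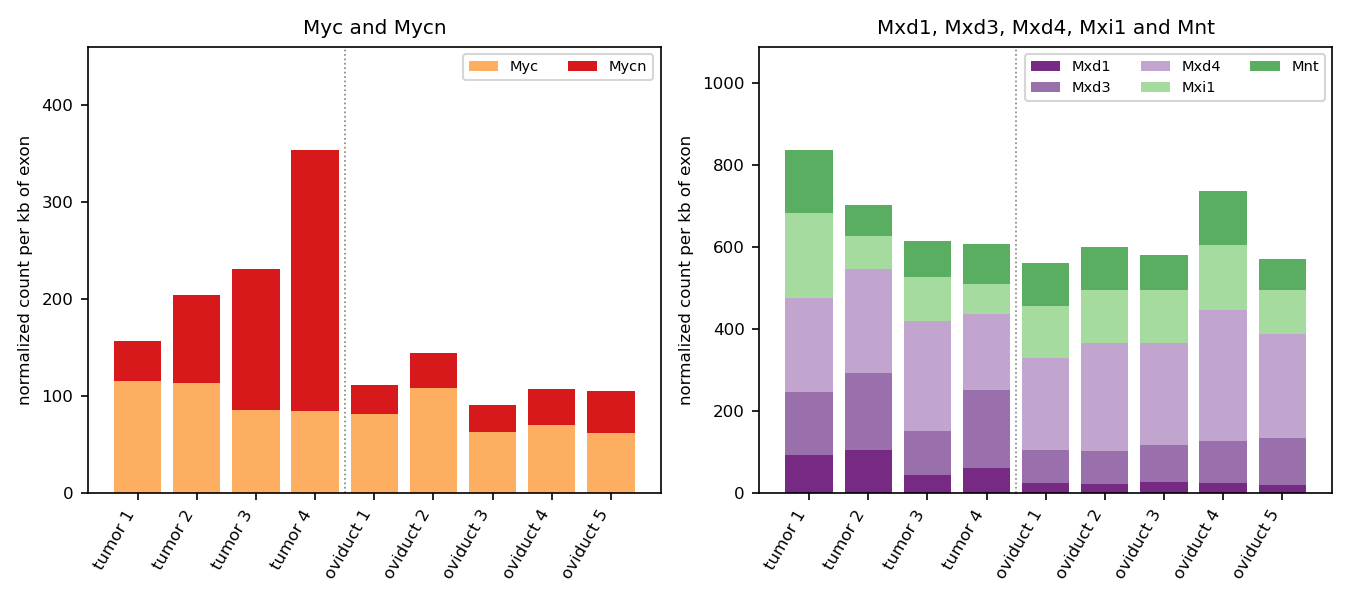
Normalized counts per kb of exon in each library, tumors left of oviducts, stacked for Myc and Mycn (left panel) and for Mxd1, Mxd3, Mxd4, Mxi1 and Mnt (right panel, other scale). The Mycn segment grows to 76.3% of the left stack in tumor 4, and the right stacks run from 607 to 837 in tumors and 560 to 736 in oviducts.

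The 3 genes most like Myc, Mycn and Mxd3 were sought by Pearson's r over the 9 libraries after subtracting the mean of each group, among 12018 genes with a mean normalized count of at least 100. The r values rest mainly on the 4 tumors and are descriptions. The highest of so many values over few libraries can be high without any relation between the genes. For Mycn the most alike were Pxmp4 (0.987), Klhl18 (0.982) and Map3k11 (0.973), with log2 changes between tumors and oviducts of -0.03, -0.14 and 0.29. For Mxd3 they were Mrpl54 (0.984), Polr2i (0.979) and Hpn (0.977), and for Myc Pigl (0.862), Vipas39 (0.856) and Bag3 (0.854).

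Sites for 7 miRNAs known to act on Myc network genes were located in the longest annotated 3' UTR of each gene (GENCODE M21), as matches to miRNA bases 2 to 8. These miRNA sequences and sites are shown since the genotype bears on miRNA maturation, and seeds and sites are in capitals. The cut of the RNase IIIb domain releases the 5p strand, whereas miR-19b-3p, miR-24-3p, miR-29a-3p and miR-101a-3p are 3p strands. The libraries measured mRNA only, so miRNA levels were not analysed here. The mature sequences are from RefSeq (GRCm38.p6).
let-7a-5p: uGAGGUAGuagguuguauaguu
miR-34a-5p: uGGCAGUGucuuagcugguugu
miR-17-5p: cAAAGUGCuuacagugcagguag
miR-19b-3p: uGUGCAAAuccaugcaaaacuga
miR-29a-3p: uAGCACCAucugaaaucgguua
miR-101a-3p: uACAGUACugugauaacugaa
No seed was shared among them. The 3' UTR of Mxd1, with 3829 bases, was the only one of the 9 with a let-7 match. This 1 of 9 lies near the share of all UTRs, 10.1% of 15724, which was not matched for length. The Mxd1 UTR also held 3 matches for miR-29a-3p and 1 for miR-101a-3p. The let-7 match lies at chr6:86650230-86650236 (minus strand) and is followed by an A, the base that often stands opposite the first base of the miRNA.
Mxd1, let-7 site: tctggaacattgtcCTACCTCa
The 3' UTR of Mycn, with 913 bases, held 6 matches for 5 miRNAs. The sites for miR-34a-5p (chr12:12936979-12936985, minus strand) and miR-19b-3p (chr12:12936970-12936976, minus strand) lie side by side near its start, and a pair of miR-101a-3p sites (chr12:12936511-12936517 and chr12:12936444-12936450, minus strand) in its middle.
Mycn, miR-34a site: cccacacggacagtCACTGCCa
Mycn, miR-19b site: acagtcactgccacTTTGCACa
Mycn, first miR-101a site: aagttcacacctaaGTACTGTa
Mycn, other miR-101a site: tgttaatctgttatGTACTGTa
Mycn also held 1 match for miR-29a-3p and 1 for miR-17-5p. Matches for miR-34a-5p were found in 16.6% of all UTRs, for miR-19b-3p in 12.4%, for miR-101a-3p in 10.6%, for miR-29a-3p in 14.8% and for miR-17-5p in 13.5%.

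The other UTRs held fewer matches or none. Myc (466 bases) and Max (1299 bases) had 0, Mxd3 and Mlx had 1 each (both for miR-24-3p), Mxd4 and Mxi1 had 3 each and Mnt had 5, and the seventh miRNA, miR-24-3p, matched 18.4% of all UTRs. Across the table, the 1593 genes with a let-7 match had a median log2 change between tumors and oviducts of 0.03, and 8.41% of them were called higher, against a median of -0.01 and 7.25% for the 14116 genes without one. Genes with CACGTG in their window had a median of -0.01 (n = 1410) and were called higher in 5.25%, against -0.05 and 6.83% for those without it (n = 12150). These values describe genes that hold the letters, and no site is shown to act.

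The genes around the network were described by 11 lists, beside a share of 6.53% of all genes called higher in tumors and 12.1% called lower. None of 11 further network proteins (such as Mycl, Mga and Mlxip) and none of 13 Myc coactivators (histone acetyltransferase and chromatin remodelling subunits) was called, with median log2 changes of 0.07 and 0.10. Of 10 corepressors that Mxd proteins and Mnt recruit, 1 rose: Sap30, a Sin3 complex subunit, by 1.59 ± 0.33 (SE), adjusted p = 0.00491 by limma (list median 0.32). Of 15 genes for Myc protein turnover 4 rose, and the list median was 0.02. They were the mitotic kinases Plk1 (2.64) and Aurka (1.77, a stabilizer of N-Myc), Cip2a (1.90, an inhibitor of the phosphatase that destabilizes Myc, listed as C330027C09Rik) and the ubiquitin ligase subunit Skp2. The ubiquitin ligase subunit Fbxw7, which marks Myc for degradation, was not called (0.14). Markers of dividing cells rose as well, and the part of cell division in the 4 rises was not tested. Protein levels were not measured.

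Of 12 upstream genes 4 rose, against 6.53% of all genes called higher, with a list median of 0.60. Igf2bp1, an RNA-binding protein that protects Myc mRNA, had normalized counts of 22.7 to 585.6 in tumors and 3.1 to 6.0 in oviducts. Lin28a, which blocks let-7 maturation, had 8.4 to 226.3 in tumors and at most 1.6 in oviducts, where 3 reads would be 3.35 or less. Lef1, a Wnt pathway factor, had a log2 change of 2.00 with overlapping groups (11.6 to 364.8 in tumors and 3.3 to 31.4 in oviducts). The fourth was E2f1, which is also in the list of cell cycle targets.

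Among targets that Myc is known to activate, lists differed in how many genes passed. Of 35 ribosome biogenesis genes 2 rose, Npm1 and Nop58 (both by 1.04), and 13 passed the adjusted p, all higher, with a list median of 0.46. Of 28 genes for nucleotide, polyamine and one-carbon metabolism 4 rose, among them hexokinase Hk2 (2.37), Ctps (1.19) and Tyms (1.13), and the median was 0.56, while Odc1, the polyamine enzyme often used as a Myc target, changed by 0.02 (adjusted p = 0.947). Of 16 translation and chaperone genes 1 rose, Eif4ebp1 (1.69), an inhibitor of translation initiation, and 10 passed the adjusted p, all higher (median 0.66). Among all genes 6.53% were called higher and 12.6% passed the adjusted p with a higher level in tumors.

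Cell cycle targets moved most: 12 of 16 rose and none fell, with a median of 1.51. The largest changes were those of the cyclins Ccnb1 (3.46) and Ccne1 (3.32) and of the replication helicase subunit Mcm5 (2.62). Cell cycle genes are also markers of dividing cells, whose sums are given beside Mxd3, and the part of Myc proteins in their change was not tested. Of 15 genes repressed through Myc, 5 rose and 1 fell, beside the same shares of all genes, with a median of 0.78. The rises were those of the cyclin-dependent kinase inhibitors Cdkn1c (2.36) and Cdkn1a, and also Gadd45g (2.11), Pdgfrb (1.62) and Klf6, and the fall was Ndrg2 (-1.03). Lists of activated and of repressed targets thus both had medians above that of all genes (-0.05).

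Of 8 targets of Mondo and Mlx dimers, Hk2 rose and Pklr, the liver-type pyruvate kinase, fell by 3.45 on the log2 scale, and the list median was -0.30. Txnip, the best known of these targets, was not called (-0.31 ± 0.41 (SE), adjusted p = 0.606 by limma). CACGTG occurred in the windows of 6 of 15 translation and chaperone genes, 7 of 24 metabolism genes and 8 of 29 ribosome biogenesis genes, but also of 5 of 12 genes repressed through Myc, the highest share of the 11 lists. It occurred in 2 of 12 cell cycle targets, 2 of 11 upstream genes, 0 of 12 turnover genes and 1 gene in each of the other 4 lists, against 10.4% of the 13560 genes of the table with a window. The lists were drawn up with earlier results known, and these counts are descriptions.

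**Figure D4:**
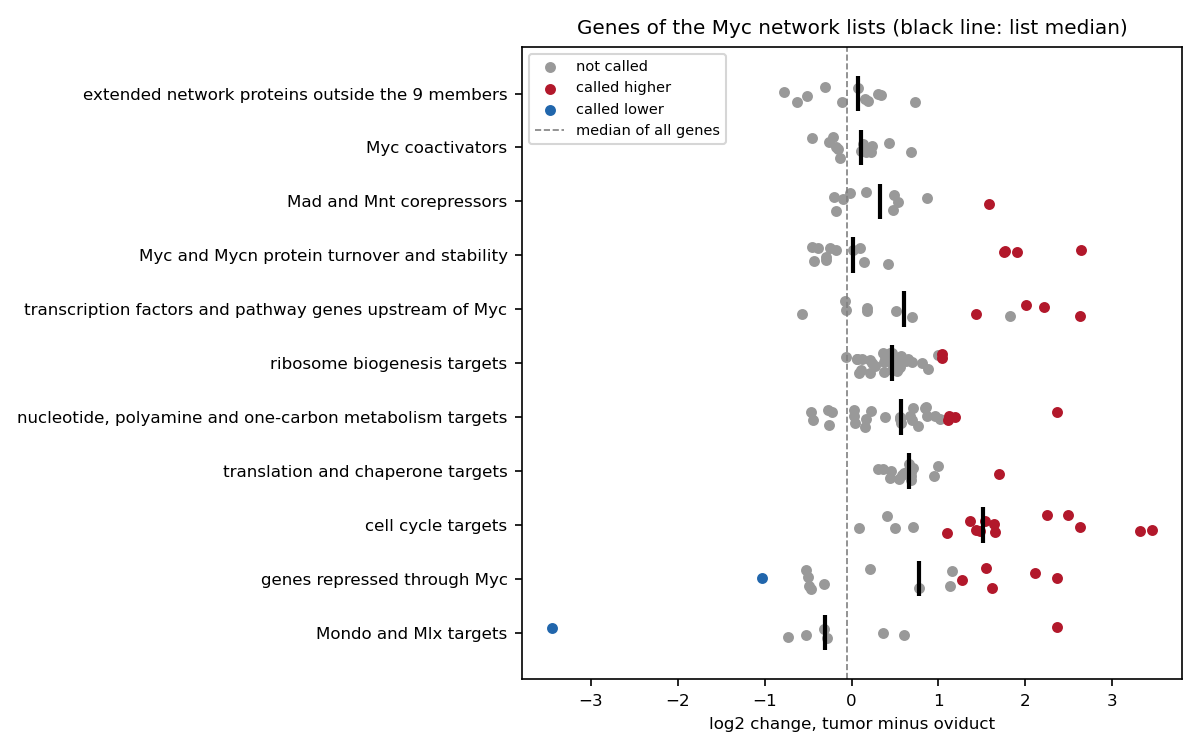
Log2 change between tumors and oviducts (horizontal axis, tumor minus oviduct) of each gene in 11 lists, with 1 point per gene, red for genes called higher, blue for genes called lower and grey for the rest; black lines mark list medians and the dashed line the median of all genes. Cell cycle targets reach 3.46 with a median of 1.51, and the extended network and coactivator lists hold no called gene.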

How the data were processed

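Poly-A RNA of 9 libraries was measured. Per the labels' protocols, RNA came from a miRNeasy extraction, mRNA was purified on poly-T beads and primed with random hexamers, and paired-end Illumina libraries were made. The submitters' processing notes name FastQC 0.11.5, STAR 2.5.3a and HTSeq with GRCm38 (mm10); the annotation, strand setting and transformation are not given in the sources used here.

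The authors deposited log2 values for 19435 genes, with a shared floor of 3.43 for genes without a read. Their form is that of a variance-stabilizing transformation. The inverse returned whole reads over a size factor per library, for all values at a tolerance of 0.05 reads, and these quotients are the normalized counts given. A change on the deposited scale understates that of genes with few reads.

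The deposited log2 values were tested with limma 3.58.1 in R 4.3.3 (trend in the prior variance, two-sided, Benjamini-Hochberg over 19435 genes), in a 2-group model for tumor against oviduct and a 3-group model otherwise. A call needed an adjusted p under 0.05 and an absolute log2 change of at least 1. "Rose" and "fell" refer to calls. Scripts were checked on simulated counts whose spread was estimated from the oviducts only. That check thus does not cover the larger spread among tumors. Alternatives were other scalings, limma-voom on recovered reads, filters, left-out libraries, a replicate block and controls of 1 genotype. Libraries with the same number in tumors and oviducts deviated together no more than others (r -0.09 to 0.13, against -0.16 to 0.15), and the numbers were not used as pairs. The labels name no batch.

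Gene positions and exon lengths are from GENCODE M21 (GRCm38), and promoter windows and miRNAs from RefSeq (GRCm38.p6). The members and the gene lists were chosen with earlier results of these data known, and the neutrophil list and overlapping genes after the values were seen. Named genes were all members, up to 3 largest called genes per list and direction with values, and the 3 genes most like Myc, Mycn and Mxd3 by r. Exceptions, chosen after their values were seen, were Mycl, Fbxw7, Odc1, Txnip, S100a8 and Csf3r. Also named were Dicer1, the genes that overlap members, and Mga, Mlxip, Hbb-bs and Alas2 as examples from their lists. Counting error alone sets the floor of 3 reads.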

Additional observations from a re-analysis of the deposited data

Results flagged for a closer look

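Max in tumor 1 had a normalized count of 1332.4, against 855.1 to 901.3 in the other 3 tumors. On the log2 scale, its gap to the nearest tumor was 0.882 of the tumors' whole range, above Dixon's critical value for a sample far from the others in a group of 4. Of the 18 groups compared in this way (9 genes in tumors and in oviducts) this was the only one, and chance marks about 1 in 20 groups. The cause was not tested.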

How the results depend on the processing

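The Mycn and Mxd1 calls between tumors and oviducts were kept under 17 of 18 alternatives. With only the 2 Dicer1+/+ oviducts as controls 0 genes were called (Mycn adjusted p = 0.270, Mxd1 adjusted p = 0.0511 by limma; 1 of 9 at an unadjusted p under 0.05, and 0 called by limma-voom), which also leaves fewer samples. With the replicate block 2 genes were called, and Mnt (-0.0620) and Mlx (0.0422) changed sign. Against Dicer1+/D1693N oviducts 1 gene was called with limma-voom, and 1 to 2 without any 1 library. Against Dicer1+/+ oviducts 0 to 2 were called without any 1 library. The sign changed only for genes near 0. Between tumors and oviducts Mlx had 0.0652 with quantile normalization and 0.12 with libraries centred on their median, and Mnt had -0.0014 with Dicer1+/+ controls; without any 1 library Mlx ran from -0.17 to 0.16 and Mnt from -0.17 to 0.16. Against Dicer1+/D1693N oviducts Mxd4 had 0.0651 with centred libraries, and without any 1 library Mxd4 ran from -0.15 to 0.0299, Mnt from -0.16 to 0.17 and Mlx from -0.10 to 0.23. Against Dicer1+/+ oviducts, with centred libraries, Mnt had 0.12 and Mlx 0.0050; without any 1 library Mnt ran from -0.37 to 0.37 and Mlx from -0.27 to 0.0599. Between oviduct genotypes, without any 1 library, Mnt ran from -0.41 to 0.33 and Mxi1 from -0.30 to 0.25. The cause was not tested.

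Quantile normalization and centring moved the median change of all genes to 0.08 and 0.09, against -0.05 as deposited, and the calls over all genes to 1696 higher and 1943 lower and to 1611 higher and 1994 lower, against 1269 higher and 2356 lower. Calls over all genes were 6051 without a minimum change and 1536 with Dicer1+/+ controls, against 3625.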
